A study of Mus musculus with 4 samples.

Results

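The progenitor spermatogonia genes around *Neurog3* are 7 of the 30828 genes listed in the count matrices: *Neurog3*, *Sox3*, *Upp1*, *Nanos3*, *Onecut2*, *Foxf1* and *Nr2e1*. They were chosen on measured values, namely their unique molecular identifiers (UMIs, 1 per captured RNA molecule) and their co-detection in germ cell barcodes of control and *Cnot3*-cKO testes, so both are a description here and were not tested. The cells came from testes of mice at postnatal day 8 (P8), sorted by FACS for the surface proteins CD9 and THY1 and run on the 10x Genomics Chromium 3′ platform. Control mice, called wild-type in the labels, were *Cnot3* flox/flox without Cre, and *Cnot3*-cKO mice were *Cnot3* flox/flox with *Ddx4*-creER, a Cre that is made from the germ cell gene *Ddx4* and acts only after tamoxifen. Both genotypes received 4-hydroxytamoxifen (4-OHT) from postnatal day 1. The labels give 2 samples per genotype, whose titles differ only in the prefix NS or NOV. Whether they are separate animals or the same cells sequenced on 2 instruments was not established. Each genotype has 1 matrix in which its samples are merged, so the comparison is between 1 library and 1 library with no replicate check. Intervals in parentheses are at 95% and cover the error of counting alone. Ratios between genotypes are given on the log2 scale with control as the denominator, so a negative value is lower in *Cnot3*-cKO.

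In the mouse testis a small pool of stem cells feeds a larger population of progenitor spermatogonia, often joined in chains by cytoplasmic bridges, and retinoic acid then commits these to differentiation and meiosis. NEUROG3, a basic helix-loop-helix transcription factor best known for starting endocrine cell formation in the pancreas, is the classic marker of these progenitors, and SOX3, an HMG-box transcription factor encoded on the X chromosome, is found in the same cells. NANOS3 is an RNA-binding zinc finger protein needed by early germ cells, and NANOS proteins are known to recruit the CCR4-NOT deadenylase, of which CNOT3 is a subunit.

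The other genes encode 3 further transcription factors and 1 enzyme. FOXF1 is a forkhead factor known from embryonic mesenchyme and lung endothelium, ONECUT2 a cut-homeobox factor known from liver and neurons, and NR2E1 (TLX) an orphan nuclear receptor of neural stem cells. UPP1 is uridine phosphorylase, which breaks uridine down to uracil in pyrimidine salvage. The 7 genes do not share a locus. In GRCm38 with the GENCODE M21 annotation, *Neurog3* (chr10:62133090-62134763, plus strand) and *Nr2e1* (chr10:42561963-42583632, minus strand) lie on 1 chromosome but far apart, as do *Nanos3* (chr8:84173731-84185217, minus strand) and *Foxf1* (chr8:121084386-121088144, plus strand). *Sox3* is at chrX:60891366-60893430 on the minus strand and *Upp1* at chr11:9118103-9136170 on the plus strand. All 7 genes are protein coding. *Neurog3* lies within *Fam241b*, which is on the opposite strand, the span of *Nanos3* holds the microRNA genes *Mir181c* and *Mir181d*, and *Foxf1* overlaps the gene model *Gm20388* on its own strand. The use of strand in counting is not given in the sources used here, so the counts of *Neurog3* and *Foxf1* are uncertain to the extent that such reads were split or dropped.

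The promoters of 4 of the 7 genes are in the RefSeq table for GRCm38.p6, and the 250 bases before the start are shown because these genes were detected in the same barcodes. Capitals mark E-boxes, the letters CANNTG bound by basic helix-loop-helix factors such as NEUROG3, a pattern that reads the same on both strands. The stretches are chr10:62132840-62133089 on the plus strand for *Neurog3*, chr10:42583591-42583840 on the minus strand for *Nr2e1*, chr8:84176553-84176802 on the minus strand for *Nanos3*, and chr11:9117853-9118102 on the plus strand for *Upp1*, the nearest of its 3 listed starts to the annotated gene start. The *Nanos3* stretch lies inside the gene span given above, since the RefSeq start used here is downstream of the start of that span.
Neurog3: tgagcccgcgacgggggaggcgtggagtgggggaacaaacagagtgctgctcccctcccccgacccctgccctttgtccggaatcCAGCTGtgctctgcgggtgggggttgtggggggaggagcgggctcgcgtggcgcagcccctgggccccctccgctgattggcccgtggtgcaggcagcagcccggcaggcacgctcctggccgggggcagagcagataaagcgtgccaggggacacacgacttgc
Nr2e1: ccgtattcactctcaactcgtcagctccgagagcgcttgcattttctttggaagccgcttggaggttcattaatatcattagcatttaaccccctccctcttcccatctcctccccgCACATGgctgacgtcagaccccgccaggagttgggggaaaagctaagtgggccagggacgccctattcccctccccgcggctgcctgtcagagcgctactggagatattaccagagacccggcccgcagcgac
Nanos3: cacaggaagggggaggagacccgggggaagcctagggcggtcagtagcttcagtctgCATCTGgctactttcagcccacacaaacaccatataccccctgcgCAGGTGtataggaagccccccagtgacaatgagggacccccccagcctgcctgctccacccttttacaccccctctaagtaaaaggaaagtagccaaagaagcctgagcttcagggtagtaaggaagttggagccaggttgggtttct
Upp1: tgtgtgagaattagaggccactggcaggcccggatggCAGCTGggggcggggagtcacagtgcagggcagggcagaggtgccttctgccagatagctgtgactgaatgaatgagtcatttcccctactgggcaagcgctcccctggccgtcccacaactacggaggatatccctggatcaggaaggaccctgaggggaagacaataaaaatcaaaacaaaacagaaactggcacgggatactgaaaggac
The *Neurog3*, *Nr2e1* and *Upp1* stretches each held 1 E-box and the *Nanos3* stretch held 2. Of all 32851 promoters in the table, 66.2% held at least 1 E-box and 31.8% at least 2 in a window of this length. No stretch held the HMG-box motif searched (A or T, A or T, C, A, A, A or T, G, on either strand), which 21.8% of all promoters held. These are matches of letters only.

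The control matrix held 181550221 UMIs and the *Cnot3*-cKO matrix 168770743, with 8341 and 9336 barcodes called as cells at thresholds of 7976.8 and 7664.4 UMIs. Germ barcodes, those with 10 or more UMIs of *Ddx4* and *Dazl* together, numbered 1350 in control (16.2% of called barcodes) and 564 in *Cnot3*-cKO (6.04%), with median depths of 42254 and 46014 UMIs. Somatic barcodes, with 2 or fewer such UMIs, numbered 6933 and 8726. The 6 other germ cell genes checked (*Mael*, *Tdrd9*, *Taf7l*, *Tex101*, *Dnd1*, *Sycp3*) summed to 1168 and 1344 UMIs per 1000000 UMIs (CPM) in germ barcodes against 13.4 and 9.30 in somatic barcodes. *Cnot3* stood at 71.4 CPM in control and 39.8 CPM in *Cnot3*-cKO germ barcodes, and at 63.7 and 67.2 CPM in barcodes with Sertoli markers. Its tags lie at the 3′ end of the transcript and may fall outside the deleted part. The libraries shared 18 called barcodes, 1 of them a germ barcode in both. Germ barcodes of the control library held more macrophage RNA, 24.5 CPM over the 5 macrophage markers against 2.41 CPM in *Cnot3*-cKO, with no marker at 0 in either. The share of germ barcodes with such a UMI ran the other way, 5.04% against 10.8%. Of the 1410 such UMIs in control, 1346 lay in 5 barcodes, which held 0 *Neurog3* UMIs. Sertoli markers in germ barcodes summed to 211 CPM in control and 280 CPM in *Cnot3*-cKO, and in empty barcodes to 2546 and 3910 CPM. The log2 ratio of *Neurog3* given below as -2.10 was -2.12 without the germ barcodes holding a macrophage-marker UMI and -2.15 with the empty-barcode profile subtracted.

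*Neurog3* UMIs were few and nearly all in germ barcodes, and there were fewer in the *Cnot3*-cKO library. *Neurog3* had 769 UMIs in control germ barcodes, 13.4 CPM (12.5 to 14.4), and 82 in *Cnot3*-cKO germ barcodes, 3.13 CPM (2.49 to 3.89). The log2 ratio was -2.10 (-2.44 to -1.77), or 4.28-fold lower. In sums such as these, fewer barcodes with the transcript and fewer UMIs in each cannot be told apart. The detection values given further on do not fully separate them, since at these depths a lower level per cell also leaves more barcodes without a UMI.

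*Onecut2* and *Nr2e1* were lower in *Cnot3*-cKO by a similar amount. *Onecut2*, at chr18:64340020-64400987 on the plus strand, stood at 17.6 CPM in control on 1009 UMIs and at 3.59 CPM in *Cnot3*-cKO on 94 UMIs, with a log2 ratio of -2.29 (-2.61 to -1.98). *Nr2e1* stood at 2.59 CPM on 149 UMIs and at 0.496 CPM on 13 UMIs, a log2 ratio of -2.39 with a wide interval (-3.33 to -1.57). The intervals of these 3 ratios overlapped.

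The other 4 genes were lower by less than 2-fold. *Foxf1* stood at 48.5 CPM in control and 30.4 CPM in *Cnot3*-cKO, on 2784 and 796 UMIs, a log2 ratio of -0.67 (-0.79 to -0.56). *Nanos3* had the same log2 ratio of -0.67 (-0.79 to -0.55), from 43.9 to 27.5 CPM on 2521 and 721 UMIs. *Sox3*, with 5039 and 1621 UMIs, stood at 87.7 and 61.9 CPM, a log2 ratio of -0.50 (-0.58 to -0.42). *Upp1* differed least, with 52.0 CPM on 2984 UMIs in control and 43.9 CPM on 1150 UMIs in *Cnot3*-cKO, which gave a log2 ratio of -0.24 (-0.34 to -0.14). UMIs count 1 tag per molecule near its 3′ end and are not scaled by transcript length, so the 7 genes are not ranked against each other by level.

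**Figure D1:**
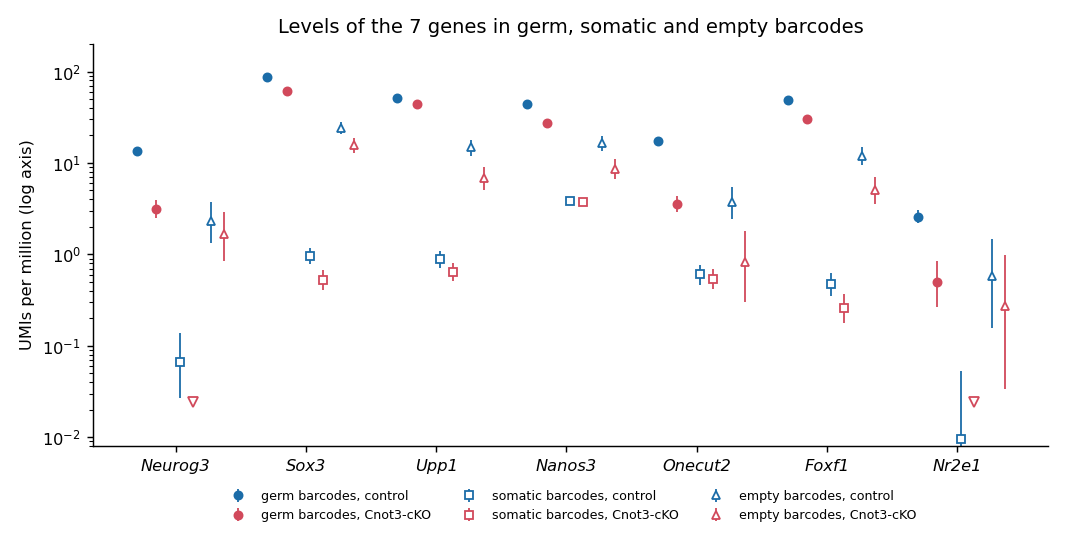
CPM (log axis) of the 7 genes in germ, somatic and empty barcodes of the control and *Cnot3*-cKO libraries, with exact 95% Poisson intervals and with downward triangles for 0 UMIs, drawn at the level that 3 UMIs would give. All 7 genes were highest in control germ barcodes, and *Neurog3* was at 13.4 there against 3.13 in *Cnot3*-cKO.

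The plot of levels by barcode class shows the split into 3 genes with a wide gap between the libraries and 4 with a narrow one. Of the 7 genes, 3 were lower by 2-fold or more (*Neurog3*, *Onecut2*, *Nr2e1*) and 0 were higher by that much, and the intervals of all 7 ratios lay below 0. Among the 16344 genes with 20 or more UMIs over both libraries, 1.83% were lower by 2-fold or more and 4.06% higher, and the intervals of 23.0% lay below 0 and of 27.8% above it. The genes were chosen on this contrast, so these shares are given for scale only. All 7 passed the filter on UMIs, *Nr2e1* through the control library alone. The median log2 ratio was -0.67 over the 7 genes and 0.03 over all 16344, whose 5th and 95th percentiles were -0.59 and 0.91.

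The direction for *Upp1* depended on the mitochondrial share of the barcodes. Germ barcodes with 10% or less of their UMIs from mitochondrial genes made up 45.4% of control (613) and 63.1% of *Cnot3*-cKO (356) germ barcodes. In these, *Upp1* was higher in *Cnot3*-cKO, 46.5 against 35.0 CPM (log2 ratio 0.41, 0.27 to 0.54), while in the barcodes above 10% it was lower, 38.5 against 67.6 CPM (-0.81, -0.99 to -0.64). The study's own filters keep barcodes with at most 10% mitochondrial UMIs and with UMIs and genes within 2 SD of the mean. They were applied here to the barcodes called in this report, with the mean taken over all called barcodes within the mitochondrial limit. Median depth was 14482 and 13148 UMIs over all called barcodes, against 42254 and 46014 UMIs in germ barcodes. The filters left 236 control and 65 *Cnot3*-cKO germ barcodes. In these, the log2 ratio was 1.05 (0.62 to 1.47) for *Upp1* and 0.06 (-0.29 to 0.39) for *Sox3*. *Nanos3* and *Foxf1* were lower in both classes but by less in the low class, at log2 ratios of -0.28 and -0.23 against -0.83 and -0.92. *Neurog3* differed little by class, at -1.96 (-2.45 to -1.50) and -1.89 (-2.41 to -1.42), and *Onecut2* was at -1.89 and -2.08. *Nr2e1* was at -1.45 (-2.68 to -0.37) in the low class and -2.96 (-4.86 to -1.56) above 10%. Its *Cnot3*-cKO UMIs were 9 and 4 in these classes. In control, all 7 genes stood higher in the barcodes above 10% than in those at or below it, for example *Neurog3* at 16.9 against 9.60 CPM and *Onecut2* at 25.3 against 9.17 CPM. The part of RNA quality in these values was not tested.

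*Neurog3*, *Onecut2* and *Nr2e1* were lower in each of 3 classes of depth. In barcodes of 30000 to 60000 UMIs, the log2 ratio was -2.18 for *Neurog3*, -2.32 for *Onecut2* and -2.27 for *Nr2e1*. In the 149 control and 110 *Cnot3*-cKO barcodes of 60000 or more UMIs, the values were -1.83, -2.30 and -2.58. Below 30000 UMIs, 55 *Neurog3* UMIs in control stood against 2 in *Cnot3*-cKO, with a log2 ratio of -3.12 (-6.20 to -1.20).

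**Figure D2:**
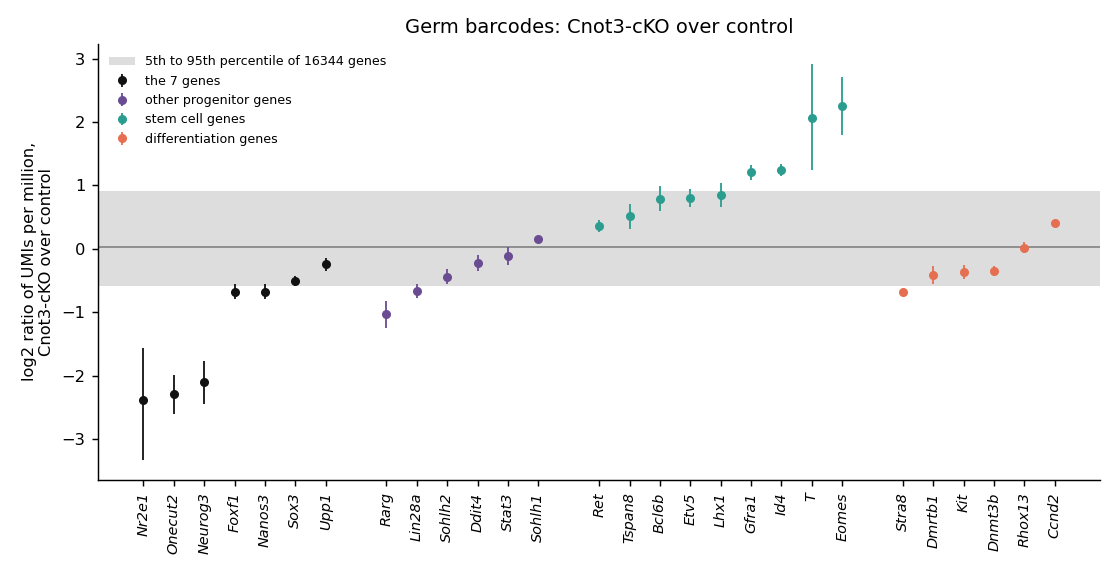
Log2 ratio of CPM in germ barcodes, *Cnot3*-cKO over control, for the 7 genes and 3 lists of spermatogonial genes, with exact 95% intervals, a grey band for the 5th to 95th percentile of 16344 genes (-0.59 to 0.91) and a line at their median. All 7 genes lie below 0, and all 9 stem cell genes shown lie above it. The genes and lists were chosen with earlier results of these data known.

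The other genes of the stem to differentiating order were grouped in lists, whose counts stand beside the 23.0% of all genes with intervals below 0 and the 27.8% above. The lists were chosen with earlier results of these data known, so their counts are a description. Of 6 other progenitor genes, 4 had intervals below 0, 1 above and 1 across it, with a median log2 ratio of -0.33. The retinoic acid receptor *Rarg*, which renders progenitors responsive to retinoic acid, was the only one of them lower by 2-fold, at 17.1 CPM in control and 8.40 CPM in *Cnot3*-cKO. *Lin28a*, an RNA-binding protein of early germ cells, stood at 52.1 and 33.0 CPM. Its log2 ratio of -0.66 (-0.77 to -0.55) lay beside those of *Nanos3* and *Foxf1*. *Ddit4*, an inhibitor of mTORC1, stood at 31.1 and 26.7 CPM, and *Sohlh1*, a germ cell helix-loop-helix factor, at 228 and 253 CPM.

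Stem cell genes stood higher in *Cnot3*-cKO. Of 10, 9 passed the filter and all 9 had intervals above 0, with 4 higher by 2-fold or more and a median log2 ratio of 0.85. *Nanos2*, which is counted with the paralogs below, had an interval across 0 (log2 ratio 0.16, -0.22 to 0.52). *Gfra1*, the GDNF co-receptor, stood at 18.96 CPM in control and 43.7 CPM in *Cnot3*-cKO, and *Id4*, an inhibitor of helix-loop-helix factors, at 32.4 and 76.9 CPM. Differentiation genes had 4 of 6 intervals below 0 and 1 above. *Stra8*, a retinoic acid target, stood at 200.1 and 125 CPM, a log2 ratio of -0.68, and *Kit* at 45.7 and 35.5 CPM, a log2 ratio of -0.36. The direction for *Kit* depended on the mitochondrial share. It was lower in barcodes with 10% or less mitochondrial UMIs (-0.80, -0.94 to -0.66) and higher in those above 10% (0.23, 0.06 to 0.41). *Stra8* was lower in both classes, at -0.68 and -0.65. Undifferentiated spermatogonia genes had 3 of 6 below and 1 above, among them *Zbtb16* at 108 and 77.6 CPM.

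Most close relatives of the 7 genes had few UMIs in germ barcodes. Of 11 paralogs, 6 passed the filter and 1 had an interval below 0. That was *Nanos1*, at 35.6 CPM in control and 25.2 CPM in *Cnot3*-cKO (log2 ratio -0.49, -0.62 to -0.37). *Nanos2*, a regulator of stem cell maintenance, stood at 3.26 and 3.63 CPM, and its interval spanned 0. *Neurog1* was counted 1 time in control and 0 times in *Cnot3*-cKO, and *Neurog2* 5 and 3 times. *Sox2* had 32 and 19 UMIs, against 5039 and 1621 for *Sox3*.

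Genes that act downstream of NEUROG3 in the endocrine pancreas were mostly rare. Of 9, 5 passed the filter. *Neurod1* had 16 control UMIs and 5 in *Cnot3*-cKO, *Insm1* had 15 and 5, *Pax4* 0 and 2, and *Nkx2-2* 2 and 0.

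In somatic barcodes the levels were far lower. *Neurog3* had 7 UMIs over 6933 control somatic barcodes, 0.0669 CPM, and 0 over 8726 *Cnot3*-cKO somatic barcodes, where 3 UMIs would be 0.0243 CPM. The germ level was 200.1-fold the somatic level in control and at least 129-fold in *Cnot3*-cKO. All 7 genes were higher in germ than in somatic barcodes by 2-fold or more in both libraries, where 29.1% of the genes tested in control and 29% in *Cnot3*-cKO were. The folds in control ran from 11.4 for *Nanos3* through 29.2 for *Onecut2*, 58.4 for *Upp1*, 90.9 for *Sox3* and 101 for *Foxf1*. *Nr2e1* had 1 somatic UMI in control, with a ratio interval on the log2 scale of 5.58 to 13.4, and 0 in *Cnot3*-cKO, where the fold was at least 20.4.

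Free RNA in the droplets held these transcripts too, so the somatic levels were set beside those of empty barcodes with 100 or fewer UMIs. Empty barcodes held 2.32 CPM of *Neurog3* in control and 1.65 CPM in *Cnot3*-cKO, on 16 and 12 UMIs. Relative to *Ddx4*, *Neurog3* stood at 0.0255 UMIs per *Ddx4* UMI in control somatic barcodes and at 0.0277 in empty ones. In *Cnot3*-cKO it stood at 0.00934 in germ barcodes and at 0.0198 in empty ones, the latter on 12 UMIs. *Sox3* stood at 0.367 in control somatic against 0.289 in empty barcodes, and at 0.237 against 0.188 in *Cnot3*-cKO. *Foxf1* stood at 0.182 against 0.142, and at 0.117 against 0.0610. The gap was widest for *Nanos3* and *Onecut2*. *Nanos3* stood at 1.47 UMIs per *Ddx4* UMI in control somatic barcodes and 1.66 in *Cnot3*-cKO ones, against 0.198 and 0.104 in empty barcodes. *Onecut2* stood at 0.229 and 0.245 against 0.0451 and 0.00988, and *Upp1* at 0.338 and 0.292 against 0.177 and 0.0824.

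The somatic UMIs lay in different cell classes. *Nanos3* was at 4.62 CPM in Sertoli-marker barcodes and 3.37 CPM in interstitial-marker barcodes of control, and at 3.88 and 3.58 CPM in *Cnot3*-cKO. Between 4.84% and 6.34% of the barcodes in these 4 classes had a *Nanos3* UMI before thinning. *Foxf1* and *Upp1* were raised in the few barcodes with endothelial markers, where 16 and 14 UMIs in 30 control barcodes gave 42.1 CPM (24.1 to 68.4) and 36.8 CPM (20.1 to 61.8), intervals that held their germ levels. In *Cnot3*-cKO, 13 and 12 UMIs in 40 such barcodes gave 27.7 and 25.5 CPM. *Neurog3*, *Sox3*, *Onecut2* and *Nr2e1* had 0 UMIs in these barcodes of either library, as did *Ddx4*. Macrophage-marker barcodes of control, 34 in number, held 2 *Upp1* UMIs and 0 of the other 6 genes.

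Detection was compared after each barcode was thinned to 10000 UMIs, which left out 20 control and 5 *Cnot3*-cKO germ barcodes. *Neurog3* was detected in 138 of 1330 control germ barcodes, 10.4% (8.79 to 12.1), and in 10 of 559 *Cnot3*-cKO germ barcodes, 1.79% (0.861 to 3.27). Without thinning the shares were 25.5% and 8.51%, or 344 and 48 barcodes. In Sertoli-marker barcodes, which should lack it, the thinned share was 0.112% in control and 0 of 3943 in *Cnot3*-cKO, which allows a share of up to 0.0761%. The median depth of Sertoli-marker barcodes was 13354 and 12793 UMIs.

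The UMIs per positive barcode were counted as well, a mean that cannot lie below 1. Over all UMIs, a control barcode with *Neurog3* held 2.24 *Neurog3* UMIs on average and a *Cnot3*-cKO one 1.71. Of the 344 control barcodes, 190 had 1 UMI, 97 had 3 or more and 36 had 5 or more, with a maximum of 15. Of the 48 in *Cnot3*-cKO, 32 had 1 UMI, 8 had 3 or more and 2 had 5 or more, with a maximum of 6. After thinning the means were 1.28 and 1.20.

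The thinned shares of the other 6 genes were lower in *Cnot3*-cKO too. *Onecut2* was detected in 11.8% (10.1 to 13.7) of control and 2.86% (1.64 to 4.61) of *Cnot3*-cKO germ barcodes, and *Nr2e1* in 2.26% (1.53 to 3.20) and 0.894% (0.291 to 2.07). *Sox3*, the most widely detected, was found in 50.7% and 37.9%, *Nanos3* in 30.6% and 22.9%, *Foxf1* in 29.6% and 22.2%, and *Upp1* in 28.9% and 25.2%. The intervals of the libraries did not overlap for *Sox3*, *Nanos3*, *Onecut2* and *Foxf1*, and overlapped for *Upp1* (26.5 to 31.5 and 21.7 to 29.0) and *Nr2e1*. How often such intervals fail to overlap over all genes was not counted. The genes were chosen on this contrast, so the shares are a description. Sertoli-marker shares in control were 0.937% for *Sox3*, 1.01% for *Upp1*, 0.375% for *Foxf1*, 0.750% for *Onecut2* and 4.84% for *Nanos3*.

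Barcodes with more *Neurog3* UMIs held more of the other 6 genes. Since co-detection in germ barcodes was part of how the genes were chosen, these levels are a description. In control germ barcodes with 0, 1, 2, 3 to 4 and 5 or more *Neurog3* UMIs (1006, 190, 57, 61 and 36 barcodes), *Upp1* stood at 30.1, 86.6, 102, 133 and 166 CPM. *Foxf1* stood at 30.8, 69.5, 96.2, 127 and 143 CPM in the same classes. Both stood higher in each successive class, and among neighbouring classes the intervals overlapped for *Upp1* at 1 and 2 UMIs and for *Foxf1* at the last pair. *Nanos3* stood at 33.0, 56.5, 69.9, 96.6 and 102 CPM, and *Onecut2* at 8.67, 29.6, 47.7, 51.2 and 59.6 CPM. *Sox3* levelled off, at 74.0, 113, 119, 144 and 138 CPM. *Nr2e1* stood at 1.36, 4.14, 5.63, 7.90 and 9.51 CPM on 15 to 56 UMIs per class.

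The stage genes also differed across these classes in control. *Kit* stood at 52.0, 39.1, 29.7, 20.6 and 2.50 CPM and *Gfra1* at 22.7, 12.5, 8.64, 4.81 and 4.01 CPM, both lower where *Neurog3* was higher, while *Rarg* stood at 12.6, 24.4, 35.3, 27.8 and 40.6 CPM. In *Cnot3*-cKO, *Kit* stood at 34.0 CPM in barcodes with 0 and 65.4 CPM in those with 1 *Neurog3* UMI, the opposite order, and at 18.5 CPM in those with 2 or more. *Stra8* stood at 111, 268 and 211 CPM in these *Cnot3*-cKO classes, and at 209.9, 206, 166, 140.2 and 102 CPM in the 5 control classes. *Ddx4* ran in control from 266 to 310 CPM over the classes. Median depth was 40942 UMIs in the class without *Neurog3* and 54551 UMIs in the class with 5 or more.

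In *Cnot3*-cKO the classes were 0, 1 and 2 or more UMIs, with 516, 32 and 16 barcodes. *Upp1* stood at 39.3, 71.7 and 109 CPM, *Foxf1* at 26.99, 40.7 and 98.0 CPM, and *Sox3* at 56.4, 100.4 and 130 CPM. In the 154 control barcodes with 2 or more *Neurog3* UMIs these genes stood at 131, 120.3 and 134 CPM, and the intervals of the libraries overlapped for all 3. These pooled classes differ in make-up, since 36 of the 154 control barcodes but 2 of the 16 in *Cnot3*-cKO had 5 or more UMIs. The pooled intervals did not overlap for *Nanos3*, at 63.2 (48.0 to 81.6) against 88.6 (82.1 to 95.6) CPM, nor for *Onecut2*, at 24.0 (15.01 to 36.3) against 52.2 (47.2 to 57.6) CPM. For *Nanos3* they overlapped at 2 UMIs, 59.2 (39.4 to 85.6) against 69.9 CPM, and at 3 to 4 UMIs, 85.9 (57.1 to 124) against 96.6 CPM. *Onecut2* stood at 2.51 and 7.46 CPM in the *Cnot3*-cKO classes with 0 and 1 UMI, against 8.67 and 29.6 CPM in control. In single classes, *Onecut2* was lower at 2 UMIs, 6.35 (1.31 to 18.6) against 47.7 (39.8 to 56.8) CPM, and its intervals overlapped at 3 to 4 UMIs, 58.3 (35.1 to 91.0) in 6 *Cnot3*-cKO barcodes against 51.2 CPM.

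**Figure D3:**
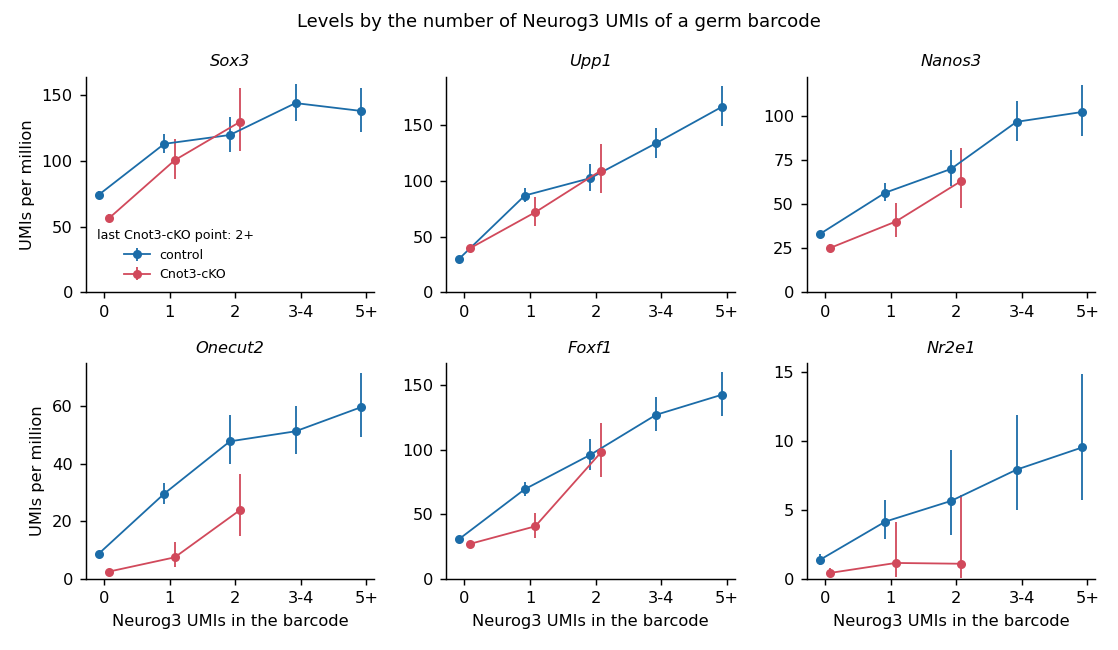
CPM of the other 6 genes in germ barcodes grouped by their number of *Neurog3* UMIs, with exact 95% Poisson intervals, for 5 classes in control and 3 in *Cnot3*-cKO, the last of them 2 or more UMIs. *Upp1* runs from 30.1 to 166 across the control classes, and the *Cnot3*-cKO points of *Onecut2* lie below those of control at 0 and 1 UMI.

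Co-detection was counted in the thinned barcodes, so that depth was equal. Of the 138 control barcodes with *Neurog3*, 63.8% (55.2 to 71.8) had *Upp1*, against 24.9% (22.5 to 27.5) of barcodes without *Neurog3*. For *Foxf1* the shares were 60.9% (52.2 to 69.1) and 26.0% (23.5 to 28.6), for *Nanos3* 57.2% and 27.5%, and for *Onecut2* 23.9% (17.1 to 31.9) and 10.4% (8.73 to 12.3). *Sox3*, common in both kinds of barcode, had 65.2% (56.6 to 73.1) and 48.99% (46.1 to 51.9). *Nr2e1* was found in 10 of the 138, or 7.25%, against 1.68%.

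Pairs that did not involve *Neurog3* were counted in the same way, and since co-detection in germ barcodes was part of how the genes were chosen, the counts are a description. In control, all 21 pairs of the 7 genes were found together more often than the product of their shares, with a median ratio of 1.96 and a range from 1.19 (*Sox3* and *Nanos3*) to 4.24 (*Onecut2* and *Nr2e1*). Pairs of genes outside the 7 were not counted, so these values do not show whether this is particular to the 7 genes. *Upp1* and *Foxf1* shared 234 barcodes where the product gave 114. In *Cnot3*-cKO, 7 pairs had a product of 5 barcodes or more and 6 of them were above it, the exception being *Sox3* and *Foxf1* with 45 barcodes against 47.0. *Upp1* and *Foxf1* shared 55 barcodes against 31.3. Of the 10 *Cnot3*-cKO barcodes with *Neurog3*, 7 had *Sox3*, 7 had *Upp1*, 6 had *Foxf1*, 3 had *Nanos3*, 3 had *Onecut2* and 0 had *Nr2e1*. Barcodes of 1 library are not replicates, and these counts describe the libraries only.

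Barcodes with many of the genes at once were counted too. At least 4 of the 7 genes were found in 206 of 1330 control germ barcodes, 15.5% (13.6 to 17.5), and in 20 of 559 in *Cnot3*-cKO, 3.58% (2.20 to 5.47). If the genes were detected independently at their single-gene shares, 4.31% and 0.812% would hold at least 4, a fold between the libraries no smaller than the observed one. At least 5 were found in 82 and 5 barcodes, 6.17% and 0.894%. None of the 7 was found in 26.2% (23.9 to 28.7) of control and 33.8% (29.9 to 37.9) of *Cnot3*-cKO barcodes.

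The genes were placed along the stem to differentiating order by the stage genes detected in each thinned barcode. Barcodes with *Gfra1* and no *Kit* or *Stra8* made up 9.47% (7.95 to 11.2) of control and 17.7% (14.6 to 21.1) of *Cnot3*-cKO germ barcodes. Those with *Kit* or *Stra8* and no *Gfra1* made up 52.9% (50.1 to 55.6) and 37.9% (33.9 to 42.1). Barcodes with none of *Gfra1*, *Neurog3*, *Kit* and *Stra8* made up 28.0% and 32.7%, and those with *Gfra1* beside *Kit* or *Stra8* 4.96% and 10.7%. The *Neurog3* barcodes, 138 and 10, overlapped these classes, since 69 and 4 of them also had *Kit* or *Stra8*. The classes depend on the thinned depth, so a barcode without a stage gene may still hold it. Without thinning, *Kit* or *Stra8* was found in 81.1% of *Neurog3*-positive and 79.7% of *Neurog3*-negative control germ barcodes. In *Cnot3*-cKO these shares were 79.2% and 69.0%.

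In control, 5 of the other 6 genes were highest in the *Neurog3* barcodes, and the lowest class differed between genes. Co-detection in germ barcodes was part of how the genes were chosen, so a peak in the *Neurog3* class is a description. How many of all genes were highest in that class was not counted. *Foxf1* stood at 112 CPM (95.3 to 131) in the *Neurog3* class, 69.0 (55.3 to 85.2) in the *Gfra1* class and 29.4 (25.6 to 33.7) in the *Kit* or *Stra8* class. *Nanos3* had the same order, with 94.9, 46.8 and 29.4 CPM. *Sox3* and *Onecut2* had the reverse order of the outer classes. *Sox3* stood at 45.2 CPM (34.3 to 58.6) in the *Gfra1* class and 78.5 (72.1 to 85.4) in the *Kit* or *Stra8* class, and *Onecut2* at 4.76 (1.75 to 10.4) and 12.9 (10.4 to 15.9), with 45.7 CPM in the *Neurog3* class. *Upp1* stood at 126 CPM in the *Neurog3* class, and at 35.7 and 33.7 CPM in the outer classes, which did not differ beyond their intervals. *Sox3* in barcodes with none of the stage genes, 114 CPM (104 to 126), did not differ beyond its interval from the *Neurog3* class, 112 CPM (95.3 to 131).

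Within classes the libraries were compared where a gene had 20 or more UMIs over both. In the *Kit* or *Stra8* class, 79 *Neurog3* UMIs in control stood against 4 in *Cnot3*-cKO, for a log2 ratio of -2.57 (-4.49 to -1.16), and *Onecut2* had 91 and 6, for a log2 ratio of -2.19 (-3.68 to -1.02). *Foxf1* and *Nanos3* were also lower there, at -1.11 (-1.72 to -0.54) and -0.92 (-1.50 to -0.38). *Sox3* was at -0.13 (-0.40 to 0.13) and *Upp1* at -0.35 (-0.80 to 0.07), both across 0.

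In the smaller classes with *Gfra1*, 4 genes had enough UMIs to be compared. In the class without *Kit* or *Stra8*, *Foxf1* was at -0.81 (-1.39 to -0.25), while *Sox3* at 0.22, *Upp1* at -0.19 and *Nanos3* at -0.18 had intervals across 0. In the class with *Gfra1* beside *Kit* or *Stra8*, *Nanos3* was at -1.10 (-2.12 to -0.16), and *Sox3*, *Upp1* and *Foxf1* had intervals across 0. In barcodes with none of the stage genes, all 5 genes with enough UMIs were lower, from -0.42 (-0.78 to -0.07) for *Upp1* to -2.28 (-3.38 to -1.34) for *Onecut2*. In the *Neurog3* class itself, with 10 *Cnot3*-cKO barcodes, the ratios of *Sox3*, *Upp1*, *Onecut2* and *Foxf1* had intervals across 0, and *Nanos3*, on 131 and 3 UMIs, was at -1.66 (-3.96 to -0.08).

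**Figure D4:**
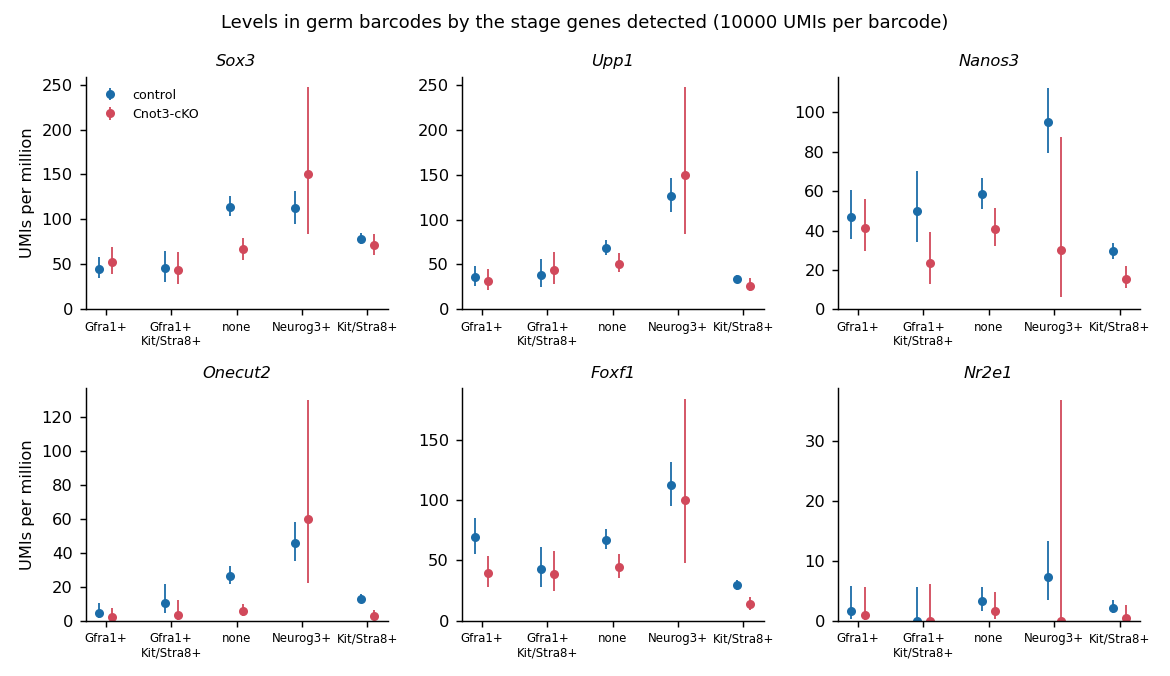
CPM of 6 genes in germ barcodes thinned to 10000 UMIs, by the stage genes detected, with exact 95% Poisson intervals, where Kit/Stra8 stands for a UMI of either gene and the Neurog3+ class overlaps the others. In control, *Foxf1* is lowest in the Kit/Stra8+ class (29.4) and *Sox3* in the Gfra1+ class (45.2), and the *Cnot3*-cKO Neurog3+ points rest on 10 barcodes.

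The genes whose pattern was most like that of *Neurog3* were ranked in control by the lower limit of the ratio of levels in the 344 *Neurog3*-positive to the 1006 *Neurog3*-negative germ barcodes, over 12443 genes with 100 or more control UMIs. In control, 1.47% of these genes were 2-fold or more higher in positive barcodes, and in *Cnot3*-cKO 1.01% of those tested were. Of the other 6 members, 5 passed that fold in control, and *Sox3*, at a log2 ratio of 0.73, did not. The members were chosen in part on co-detection in these barcodes, so their folds and ranks are a description. *Onecut2* ranked at 1, *Upp1* at 6, *Nr2e1* at 8 and *Foxf1* at 11, while *Nanos3* ranked at 56 and *Sox3* at 228. *Onecut2* stood at 40.1 CPM in positive and 8.67 CPM in negative control barcodes, 4.62-fold.

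The other 11 of the first 15 genes included *Ly6g6e* and *Ly6g6c*, members of the Ly6 family of surface proteins, *Rspo1*, a secreted Wnt agonist, *Snai1*, a zinc finger repressor, *Ddit4* and the ETS factor *Fli1*. *Ly6g6e* stood at 11.4 CPM in positive and 2.62 CPM in negative barcodes, and *Rspo1* at 17.5 and 4.37 CPM. *Epb41l4a*, *Pde6b*, *Pacsin1*, *Phlda2* and *RP23-41J14.2* completed the list.

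The *Cnot3*-cKO germ barcodes took no part in this ranking. However, 4 of the 15 genes (*Onecut2*, *Upp1*, *Nr2e1* and *Foxf1*) are members, whose choice used co-detection in both libraries. For these 4 the values are a description. In *Cnot3*-cKO germ barcodes, all 15 genes stood higher in the 48 *Neurog3*-positive than in the 516 negative ones. Of the 15, 11 were higher by 2-fold or more, and 12 had intervals above 0. The remaining 3, *Rspo1*, *Nr2e1* and *Fli1*, had 7, 3 and 3 UMIs in the positive barcodes. Of the members, *Onecut2* was 5.24-fold higher (log2 ratio 2.39, 1.74 to 3.02) and *Upp1* 2.15-fold (1.10, 0.89 to 1.32). Median depth was 52522 UMIs in positive and 44960 UMIs in negative *Cnot3*-cKO barcodes.

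Between genotypes, the 15 genes did not move as 1 group. In germ barcodes, 6 were lower in *Cnot3*-cKO by 2-fold or more and 12 had intervals below 0, the exceptions being *Ly6g6c*, *Pacsin1* and *Phlda2*. Of all 16344 genes, 1.83% were lower by 2-fold or more and 23.0% had intervals below 0. The 4 members among the 15 were chosen on this contrast. *Ly6g6e* stood at 5.12 CPM in control and 0.917 CPM in *Cnot3*-cKO, *RP23-41J14.2* at 19.3 and 3.74 CPM, and *Rspo1* at 8.10 and 2.14 CPM. *Pacsin1* stood at 23.1 and 26.7 CPM and *Phlda2* at 29.0 and 30.7 CPM, although *Phlda2* was 2.95-fold higher in *Neurog3*-positive control barcodes and 2.62-fold in *Cnot3*-cKO.

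**Figure D5:**
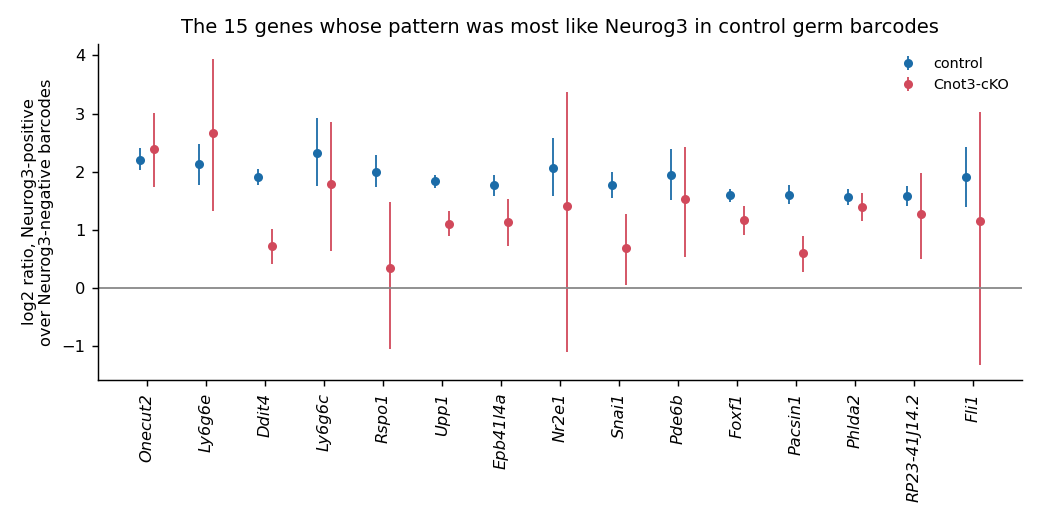
Log2 ratio of CPM in *Neurog3*-positive over *Neurog3*-negative germ barcodes, for the 15 genes ranked first in control, in rank order from the left, with exact 95% intervals for each library, the control values being those that chose the genes. All 15 *Cnot3*-cKO points lie above 0, and the intervals of *Rspo1*, *Nr2e1* and *Fli1* reach below it.

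At the edge of the germ gate, the 7 genes together stood at 307 CPM (276 to 339) in the 77 control barcodes with 10 to 19 UMIs of *Ddx4* and *Dazl*, and at 215 CPM (170 to 270) in the 28 with 5 to 9. In *Cnot3*-cKO the values were 109 CPM (78.3 to 147) in 22 barcodes and 129 CPM (90.2 to 178) in 23. *Neurog3* had 18 and 6 UMIs in these control barcodes and 0 in those of *Cnot3*-cKO.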

How the data were processed

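The deposited matrices hold raw UMI counts, 1 row per gene, which the authors made with Cell Ranger 3.0.1, the mm10 genome and the Ensembl 93 annotation. Counting settings are not given in the sources used. The submitters' processing notes name Cell Ranger and mm10. Each matrix lists all 6794880 barcodes of the kit and merges the NS and NOV samples of its genotype. The paper states that its single-cell libraries were sequenced on NextSeq and NovaSeq systems. That the prefixes name these systems was not established. Columns of values not used numbered 0.

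The 7 genes, the lists and the gates were chosen with earlier results of these data known. Groups came from the genotype label. Cells were barcodes at or above the 99th percentile of the top 3000 divided by 10. No mitochondrial filter was applied in the values as reported and no doublet caller was run. Barcodes with more than 1% of UMIs in somatic marker lists were left out as an alternative. Somatic barcodes took the marker list with the most UMIs, at least 5. UMIs were summed per library and scaled to CPM with exact Poisson intervals. Log2 ratios have exact conditional intervals and shares have 95% Clopper-Pearson ones. For a count of 0, the limit given is 3 counts. With 1 library per genotype no test was made. Genes named besides the 7 were those of the lists and the 15 with the highest lower limit in *Neurog3*-positive over negative control germ barcodes. The ratio, thinning and interval steps were tested on simulated data. Alternatives changed the gate, filters, depth, scaling and free RNA, 18 of them planned and 4 added after the data were seen. Tools were numpy 2.4.6, scipy 1.17.1, pandas 2.3.3 and matplotlib 3.10.9.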

Additional observations from a re-analysis of the deposited data

How the results depend on the processing

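Over 125 recomputed log2 ratios of the 7 genes, 100 stayed within the interval of the reported value, 22 left it in the same direction and 3 reversed. *Upp1* reversed to 0.41 without barcodes over 10% mitochondrial UMIs and to 1.05 under the study's filters, where *Sox3* reversed to 0.0594. The cause was not tested. *Nr2e1* had 9 and 0 UMIs under those filters and no ratio. Its log2 ratio left the interval at -1.45 without barcodes over 10% mitochondrial UMIs and at -1.515 after thinning to 10000 UMIs. *Neurog3* stayed between -3.12 (barcodes under 30000 UMIs, chosen after seeing the data) and -1.83, and was -2.63 after thinning. Its control share was 8.77% without barcodes over 10% mitochondrial UMIs, 7.05% under the study's filters, 12.3% without *Kit* or *Stra8* and 16.0% when thinned to 20000 UMIs. Its *Cnot3*-cKO share was 0% under the study's filters (0 of 61, which allows up to 4.92%), 0% under 30000 UMIs (0 of 89, up to 3.37%), 3.64% at 60000 or more UMIs and 5.04% when thinned to 20000. Germ barcodes numbered 613 and 356 without those over 10% mitochondrial UMIs, 236 and 65 under the study's filters, 561 and 287 without *Kit* or *Stra8*, 270 and 94 under 30000 UMIs, 931 and 360 from 30000 to 60000, and 149 and 110 above. The count of genes lower by 2-fold or more was 299 as reported, 779 (4.08%) with a minimum of 5 UMIs and 93 (0.697%) with 100. The number of the 7 genes lower by 2-fold or more stayed between 2 and 4. With 2 *Neurog3* UMIs required, 14 of the 15 genes most like it were kept. Subtracting the empty-barcode profile, with free RNA estimated at 8.27% and 7.15% from Sertoli markers, gave -2.15 for *Neurog3*. No paired analysis was possible because the samples of a genotype are merged in 1 matrix, and for the same reason no sample could be left out. Whether the samples of a genotype are biological replicates was not established.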
